A study of Homo sapiens with 4 samples.

Results

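The 10 genes described here encode AKT1S1 and the core of the mTORC1 pathway: AKT1S1, MTOR, RPTOR, MLST8, DEPTOR, TSC1, TSC2, RHEB, DDIT4 and RPS6KB1. They were matched by symbol to the gene identifiers of the deposited count tables, and all 10 were found among the 60675 genes listed. All 10 also passed the filter on low counts, which left 14909 genes. The members were chosen with their values in the comparison described here already known, so their differences between the groups, and the calls counted among them, are descriptions that support nothing further.

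The assay sequenced the RNA bound to KIF5A with a V5 tag in SK-N-AS, a human neuroblastoma cell line. KIF5A is a heavy chain of kinesin-1, the motor that carries cargo along microtubules. One group of 2 libraries came from cells transfected with a construct for a KIF5A mutant named d27 in the labels, and the other group of 2 libraries from cells transfected with the wild-type (WT) construct. The groups share the line, the V5 tag, the lipid transfection, the harvest 24 hours later and the beads that bind V5, and nothing in the labels says that the cells' own KIF5A gene was altered. Expression was transient, and the labels do not say whether the numbered precipitates came from separate cultures, so SDs and p-values cover the spread of these libraries alone, and that spread may be technical. No input or mock-precipitated library is used here, so a value is a level in a precipitate and not an enrichment, and more of a transcript in the cells cannot be told apart from more of it bound.

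mTORC1 is a protein kinase complex that couples cell growth to nutrients, energy and growth factors. MTOR is the kinase, RPTOR (raptor) recruits its substrates, MLST8 binds the kinase domain, and AKT1S1 (PRAS40) and DEPTOR are subunits that inhibit it. The TSC1 and TSC2 proteins form a complex that switches off the small GTPase RHEB, which activates the kinase at the lysosome, and DDIT4 (REDD1) is a stress-induced inhibitor that acts through TSC2. RPS6KB1 (S6K1) is one of the kinases that mTORC1 phosphorylates, and the translation of mRNAs with a 5′ terminal oligopyrimidine (TOP) tract depends strongly on mTORC1 activity.

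A TOP tract is read from the first base of the transcript. The starts of 4 TOP mRNAs are therefore set beside those of 4 members without such a tract at the RefSeq start. The starts used in these cells were not measured. Each line gives 15 bases before and 15 bases from the RefSeq start on the GRCh38.p14 build, on the gene's own strand, 5′ to 3′. The capitals mark an unbroken run of C and T bases from the start, where it begins with C and spans at least 5 bases.
EEF1A1: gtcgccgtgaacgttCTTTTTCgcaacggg
EEF2: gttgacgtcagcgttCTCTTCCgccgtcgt
RACK1: ggggggcttttctctCTCTCTTTCactgca
NAP1L1: ggcgggctcttgggtCTTTTTTagcgccat
MTOR: aaccctccttccctcgctcccggcttagag
RPTOR: cgcggtgcattctgggtcctggcaatatgg
RHEB: gcggcggaagaaggtgggagggtcatgacg
DDIT4: cgctggtgctagggcgcagcaggccaaggg
These windows lie at chr6:73521018-73521047, chr19:3985449-3985478, chr5:181243892-181243921, chr12:76084671-76084700 and chr1:11262537-11262566 on the minus strand for EEF1A1, EEF2, RACK1, NAP1L1 and MTOR. The window of RHEB lies at chr7:151519881-151519910 on the minus strand, and those of RPTOR and DDIT4 at chr17:80544823-80544852 and chr10:72273909-72273938 on the plus strand. The run stood at none of the 8 RefSeq starts found for 7 members, AKT1S1, DEPTOR and MLST8 having no entry. It stood at 9 of 13 starts (69.2%) found for 11 of the 17 listed TOP mRNAs, and at 1429 of all 35116 RefSeq starts (4.07%).

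Gene counts totalled 18335151 and 10483082 in d27 replicates 1 and 2, and 8142869 and 10811134 in WT replicates 1 and 2. KIF5A took 10.8% and 11.2% of these counts in d27 and 9.03% and 14.8% in WT, with a log2 fold change of -0.20 ± 0.49 (SE; edgeR adjusted p = 0.821). The libraries did not group cleanly by construct: across genes, Pearson's r of log2 levels was 0.963 between the d27 replicates, 0.928 between the WT replicates, and 0.866 to 0.930 between the groups. Reads that met no annotated gene made up 13.5% and 16.7% of all entries in d27 replicates 1 and 2, against 20.6% and 21.8% in WT replicates 1 and 2. CPM below are counts scaled by library total and TMM. Of 7 adrenergic neuroblastoma markers, HAND2 was the most abundant, with 557 and 424 CPM in d27, against 697 and 681 CPM in WT. The median log2 fold change of the 6 tested was -0.38, and the lowest edgeR adjusted p was that of GATA3 (log2 0.69 ± 0.23, SE; adjusted p = 0.0890). The noradrenaline enzymes TH and DBH had at most 5 and 13 counts in a library. The 7 mesenchymal markers had a median of 0.72, with 5 above 0 and 2 below. Of these, FOSL1 passed the test, with 1911 and 1743 CPM in d27, against 166 and 142 CPM in WT (log2 3.57 ± 0.30, SE; edgeR adjusted p = 0.00384). The others did not pass. Their log2 fold changes (± SE) were 0.96 ± 0.35 for CD44, 0.72 ± 0.29 for YAP1, 1.5 ± 0.55 for SNAI2 and 0.17 ± 0.39 for PRRX1. Those of VIM and FN1 were -0.54 ± 0.27 and -1.63 ± 0.46. Of the blood markers, HBB, CD3E and MS4A1 had no count, CD14 had 54 and 27 counts in d27 and 3 and 18 in WT, and PTPRC had 100.5 and 79.5 CPM in d27, against 189 and 162 CPM in WT (edgeR adjusted p = 0.0433). Of the epithelial markers, EPCAM and KRT5 had no count, CDH1 had 5 counts in WT replicate 2 alone, and KRT8 had 31.4 and 25.5 CPM in d27, against 41.6 and 30.6 CPM in WT. The part of these marker differences in the values of the pathway genes was not tested.

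AKT1S1 stood apart from the other subunits. Its transcript, which encodes a substrate of the growth factor kinase AKT as well as an mTORC1 subunit, had 669 and 732 CPM in d27 replicates 1 and 2, against 86.9 and 95 CPM in WT replicates 1 and 2. Both d27 libraries lay far above both WT libraries, and within each group the replicates differed by a ratio of 1.09. The means were 700.4 ± 44.3 CPM in d27 and 91.0 ± 5.74 CPM in WT (SD, n = 2 each), 7.70-fold higher in d27, a log2 fold change of 2.94 ± 0.26 (SE). The raw counts behind these values were 12334 and 7896 in d27 and 766 and 917 in WT. As a share of all gene counts, AKT1S1 held 0.0673% and 0.0753% in d27 and 0.00941% and 0.00848% in WT. The exact binomial 95% intervals were 0.0661% to 0.0685% and 0.0737% to 0.0770% in d27, and 0.00875% to 0.0101% and 0.00794% to 0.00905% in WT, for counting error only. Ranked by count among protein-coding genes, it was number 116 and 93 in the d27 libraries, and number 2283 and 2161 in the WT libraries. Its log2 fold change was the 126th highest of the 14909 genes tested.

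Of the 10 members, 1 was called, AKT1S1, where 8.00% of all genes tested were called higher in d27 and 3.70% lower (edgeR, adjusted p under 0.05). The groups did not overlap in 8 members: AKT1S1, RHEB, DDIT4 and RPS6KB1 were above WT in both d27 libraries, and MTOR, RPTOR, TSC2 and DEPTOR were below it in both. Over all genes tested, 31.4% lay wholly above and 29.8% wholly below, 61.2% in all. Other settings called 1 to 7 of the members. DESeq2 called 23.3% of the genes it tested, its size factors in edgeR 11.9%, and library totals 7.87%. No filter gave 9.23%, a mean of at least 50 counts 20.5%, and a block on the replicate number 24%. Offsets for GC content with exon or coding length gave 15.6% and 10.2%, and the block with exon length 27.3%. Leaving out d27 replicate 1 or 2 gave 4.66% and 11.4%, and leaving out WT replicate 1 or 2 gave 29.7% and 8.11%. The median log2 fold change was -0.17 over the members and 0 to 2 decimals over all genes tested, of which 7453 were above 0 and 7455 below.

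**Figure D1:**
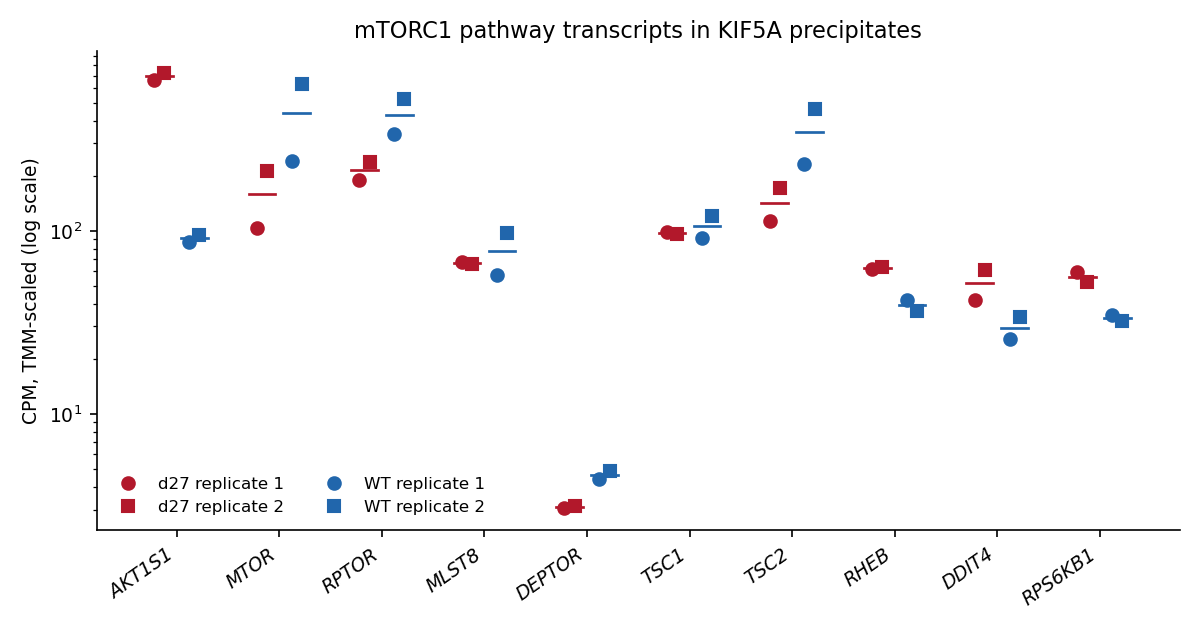
CPM (counts scaled by library total and TMM, log axis) of the 10 members in each library, with d27 to the left of WT in each pair; points are libraries and bars are group means. AKT1S1 shows 669 and 732 CPM in d27 against 86.9 and 95 CPM in WT, and MTOR spans 241 to 637 CPM between the 2 WT libraries.

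MTOR, the kinase, had 104 and 212 CPM in d27 replicates 1 and 2, against 241 and 637 CPM in WT replicates 1 and 2. The d27 libraries were the lower ones, but d27 replicate 2 lay close to WT replicate 1, and the WT replicates differed by a ratio of 2.65. The means were 158 ± 76.3 CPM in d27 and 439 ± 281 CPM in WT (SD, n = 2 each), with a log2 fold change of -1.48 ± 0.50 (SE). Without WT replicate 2, the value was -0.59, and without WT replicate 1 it was -1.98. Without d27 replicate 1 or 2, it was -1.03 and -2.05.

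RPTOR, the scaffold, had 190.5 and 239 CPM in d27 and 336 and 523 CPM in WT, in the same order of libraries as MTOR. Its means were 215 ± 34.3 CPM in d27 and 429 ± 132 CPM in WT, with a log2 fold change of -1.0 ± 0.30 (SE). With 1 library left out, the value ran from -1.24 (without WT replicate 1) to -0.62 (without WT replicate 2). MLST8, the third core subunit, overlapped between the groups, with 67.6 and 66.0 CPM in d27 and 57.4 and 97.2 CPM in WT. Its log2 fold change of -0.21 ± 0.30 (SE) became 0.24 without WT replicate 2. DEPTOR, the other inhibitory subunit, was sparse, with 56 and 34 counts in d27 and 39 and 47 counts in WT. That came to 3.04 and 3.15 CPM in d27 and 4.42 and 4.87 CPM in WT, with a log2 fold change of -0.59 ± 0.52 (SE).

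A ratio within a library needs no scaling between libraries, but it keeps any difference between libraries that goes with transcript length. Fold change went with coding length over all genes (below). AKT1S1 has 828 coding bases, against 7647 in MTOR and 4005 in RPTOR. No share or ratio was computed with an offset for coding length. Of the summed counts per kilobase of merged exons of the 5 mTORC1 subunits, AKT1S1 made up 72.7% and 69.1% in d27 replicates 1 and 2, against 18.3% and 11.5% in WT replicates 1 and 2. The AKT1S1 share averaged 70.9% ± 2.55 in d27 and 14.9% ± 4.86 in WT (SD, n = 2 each), a difference of 56.0 percentage points. MTOR made up 5.34% and 9.46% in d27 and 24% and 36.5% in WT, and RPTOR 11.5% and 12.6% in d27 and 39.5% and 35.2% in WT. In both WT libraries the largest share was therefore that of MTOR or RPTOR, and in both d27 libraries that of AKT1S1. The MLST8 share was 9.74% and 8.26% in d27 and 16.1% and 15.6% in WT. The DEPTOR share stayed at or below 2.04% in all 4 libraries. The exact permutation test was not used, since 2 against 2 libraries cannot give a p below 0.33.

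**Figure D2:**
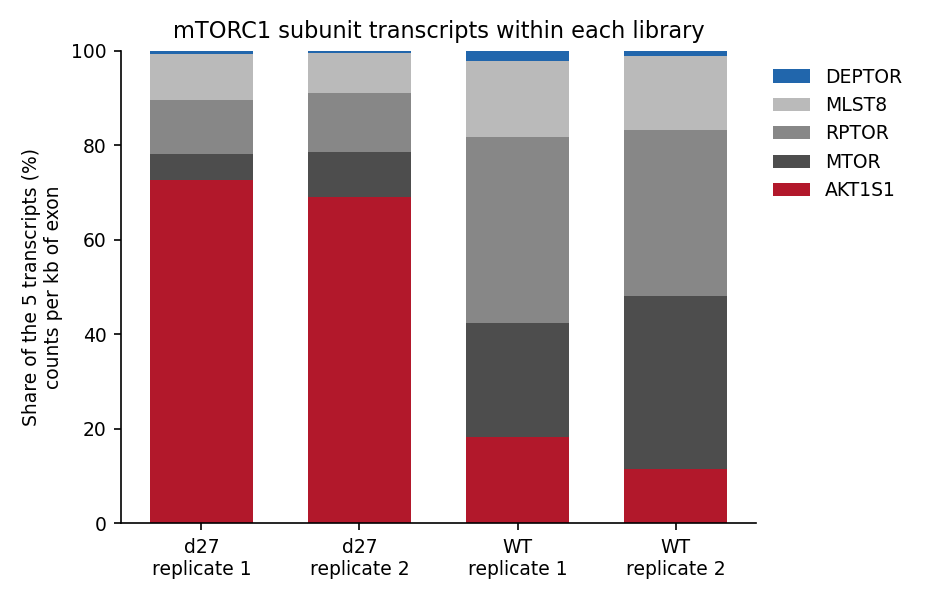
Share (%) of each mTORC1 subunit transcript in the summed counts per kilobase of the 5 subunits, 1 bar per library, with d27 libraries left of WT libraries. AKT1S1 fills 72.7% and 69.1% of the d27 bars and 18.3% and 11.5% of the WT bars.

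The ratios of AKT1S1 to its partners, in counts per kilobase, separated the groups in the same way. AKT1S1 to MTOR was 13.6 and 7.30 in d27, against 0.763 and 0.315 in WT. AKT1S1 to RPTOR, the subunit that the AKT1S1 protein binds, was 6.31 and 5.50 in d27, against 0.465 and 0.326 in WT. AKT1S1 to MLST8 was 7.46 and 8.36 in d27, against 1.14 and 0.737 in WT. The d27 libraries were above both WT libraries in these 3 ratios. The ratio of RPTOR to MTOR, by contrast, overlapped, at 2.16 and 1.33 in d27 and 1.64 and 0.965 in WT.

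Levels were compared between genes as CPM per kilobase of merged exons. In d27 the order from highest to lowest was AKT1S1, DDIT4, RPTOR, RHEB, MLST8, MTOR, RPS6KB1, TSC2, TSC1 and DEPTOR. AKT1S1 led with 117 and 128 CPM per kilobase, well above DDIT4 at 20.5 and 29.7, and DEPTOR was last at 1.16 and 1.20. Neighbours in this order whose libraries overlapped were DDIT4 and RPTOR, MLST8 and MTOR, and RPS6KB1 and TSC2. In WT the order was RPTOR, MTOR, MLST8, TSC2, AKT1S1, DDIT4, RHEB, TSC1, RPS6KB1 and DEPTOR. RPTOR had 32.6 and 50.8 CPM per kilobase there, AKT1S1 15.1 and 16.6, and DEPTOR 1.69 and 1.86. From RPTOR down to DDIT4, each WT neighbour pair overlapped, while from DDIT4 down to DEPTOR no neighbour pair did. With the longest annotated transcript as the length, AKT1S1 was again number 1 in d27 and number 5 in WT. Other members moved. Among them, DDIT4 went from number 2 to 5 and MLST8 from 5 to 3 in d27. In WT, TSC2 went from number 4 to 2 and MTOR from 2 to 3.

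AKT1S1 (ENSG00000204673) lies on GRCh38 at chr19:49869033-49878459 on the minus strand. In GENCODE release 29 it has 5737 bases of merged exons, and its longest annotated coding sequence has 828 bases. AKT1S1 shares 392 exon bases (6.83%) with TBC1D17 on the opposite strand. TBC1D17, a RAB GTPase regulator, had 40.4 and 87.3 CPM in d27, against 35.2 and 32.0 CPM in WT, a log2 fold change of 0.92 ± 0.37 (SE; edgeR adjusted p = 0.139). It was far below AKT1S1 in d27 and did not pass the test.

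Of the 9 other genes tested within 60 kb of AKT1S1, a window chosen after its values were seen, 2 were called higher in d27 and 1 lower. Over all genes tested, 8.00% were called higher and 3.70% lower. ATF5, a stress-responsive transcription factor, had 36.6 and 56.2 CPM in d27, against 11.5 and 11.9 CPM in WT, a log2 fold change of 1.99 ± 0.32 (SE; edgeR adjusted p = 0.0137). MED25, a Mediator subunit, rose by 0.96 ± 0.24 (edgeR adjusted p = 0.0418), and the antisense transcript PTOV1-AS2 fell by 1.66 ± 0.39 on the log2 scale (SE; edgeR adjusted p = 0.0359). The MED25 call ended with library totals (adjusted p = 0.0557) and without d27 replicate 1 (0.0571), d27 replicate 2 (0.144) or WT replicate 2 (0.0696). The PTOV1-AS2 call ended without d27 replicate 1 (adjusted p = 0.140) or WT replicate 2 (0.0839). FUZ, PTOV1, NUP62 and PTOV1-AS1 had log2 fold changes of -0.11, 0.15, -0.52 and -1.35 and did not pass the test.

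**Figure D3:**
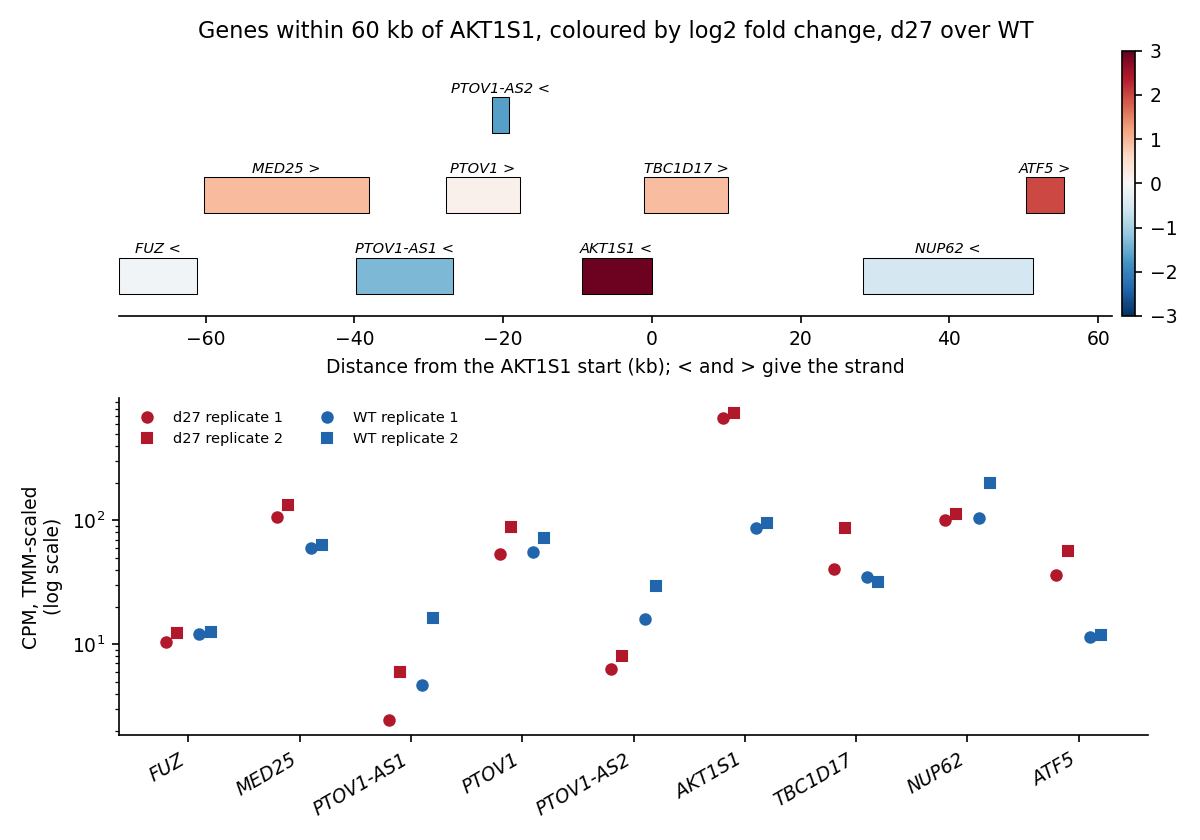
AKT1S1 and 8 of the 9 other genes tested within 60 kb, drawn by distance in kb and coloured by log2 fold change (d27 over WT) in the upper panel, with CPM per library (log axis, d27 left of WT) in the lower panel. AKT1S1 is the farthest from 0 at 2.94, next to TBC1D17 at 0.92.

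Upstream of the complex, TSC1 and TSC2, whose proteins work together, differed from each other. TSC2, the subunit that acts on RHEB, had 113 and 171 CPM in d27, against 231 and 461 CPM in WT. Its means were 142 ± 41.3 CPM in d27 and 346 ± 163 CPM in WT (SD, n = 2 each), with a log2 fold change of -1.29 ± 0.37 (SE). With 1 library left out, the value ran from -1.66 (without WT replicate 1) to -0.68 (without WT replicate 2). TSC1, which stabilizes TSC2, overlapped between the groups, with 98.3 and 96.5 CPM in d27 and 91.2 and 120.4 CPM in WT. Its log2 fold change was -0.12 ± 0.24 (SE), and 0.12 without WT replicate 2. The ratio of TSC2 to TSC1, in counts per kilobase, was 1.03 and 1.59 in d27, against 2.27 and 3.43 in WT. TSC2 shares 402 exon bases with NTHL1 and 778 with PKD1, both on the opposite strand, so without the strand setting some reads may not be told apart.

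MTOR, RPTOR and TSC2 lay in the same order over the libraries: d27 replicate 1 lowest, then d27 replicate 2, WT replicate 1 and WT replicate 2. DEPTOR had that order too, at far lower counts. The share of reads with no annotated gene followed the same order, from 13.5% to 21.8%, and 1974 of the genes tested (13.2%) did as well. The part of that share in the values of these genes was not tested.

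RHEB, the GTPase that TSC2 switches off, had 61.9 and 63.5 CPM in d27, against 42.1 and 36.6 CPM in WT. Both d27 libraries were above both WT libraries. The means were 62.7 ± 1.12 CPM in d27 and 39.3 ± 3.90 CPM in WT (SD, n = 2 each), 1.59-fold higher in d27, with a log2 fold change of 0.67 ± 0.24 (SE).

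DDIT4, the stress-induced inhibitor, had 42.1 and 61.2 CPM in d27, against 25.5 and 33.7 CPM in WT. The means were 51.6 ± 13.5 CPM in d27 and 29.6 ± 5.76 CPM in WT, with a log2 fold change of 0.80 ± 0.30 (SE). The groups did not overlap, but the d27 replicates lay farther apart than d27 replicate 1 and WT replicate 2. The antisense gene DDIT4-AS1 covers 847 of its exon bases (41.16%).

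RPS6KB1, the S6 kinase downstream, had 59.4 and 52.3 CPM in d27, against 34.5 and 32.2 CPM in WT, with no overlap. The means were 55.8 ± 5.04 CPM in d27 and 33.4 ± 1.60 CPM in WT, with a log2 fold change of 0.74 ± 0.25 (SE). RHEB, DDIT4 and RPS6KB1 were thus all between 1.59-fold and 1.74-fold higher in d27, far below the 7.70-fold of AKT1S1.

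The 3 members with the lowest log2 fold changes have the longest coding sequences, with 7647 bases in MTOR, 5421 in TSC2 and 4005 in RPTOR. TSC1, whose groups overlapped, has 3492. The members wholly above WT have 828 (AKT1S1), 696 (DDIT4), 552 (RHEB) and 1575 (RPS6KB1) coding bases. DEPTOR, which was lower in d27, has 1227, and MLST8, which overlapped, 981, so the order by length is not followed throughout. Coding length went with the fold change over the whole table, with a Spearman correlation of -0.40 across 12306 protein-coding genes, given as a description, since genes of a library are not independent replicates. Of the 978 genes with at least 4000 coding bases, 8 were called higher in d27 (0.818%) and 248 lower (25.4%), with a median log2 fold change of -0.84. Of the 3610 genes under 1000 coding bases, 646 were called higher (17.9%) and 53 lower (1.47%), with a median of 0.43. With an offset for GC content and coding length, added after the data were seen, AKT1S1 remained at 2.45. The same offset put MTOR at -0.47, RPTOR at -0.41 and TSC2 at -0.48, and RHEB, DDIT4 and RPS6KB1 at 0.19, 0.30 and 0.40. Why coding length went with the fold change was not tested.

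**Figure D4:**
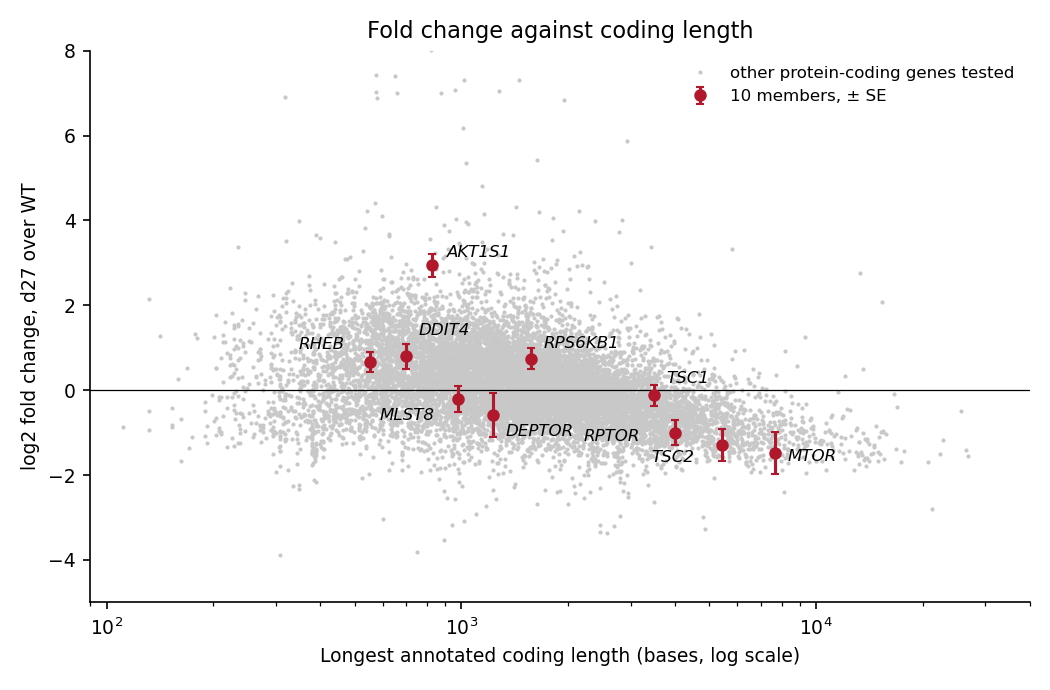
Log2 fold change (d27 over WT) against coding length in bases (log axis) for the protein-coding genes tested, with 9 genes outside the plotted range; the members are labelled and error bars are SE. AKT1S1 lies at 2.94 with 828 coding bases, high among genes of like length but below some of them. MTOR (-1.48), TSC2 (-1.29) and RPTOR (-1.0) lie among the other long genes.

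The rest of the pathway was read from 5 lists of 103 genes, of which 102 were matched and 97 tested. In d27, 7 were called higher and 4 lower (11.3% of those tested, against 11.7% over all genes tested), and 86 did not pass the test. The median log2 fold change was 0.15 over the 97 genes. The growth factor and energy list had 25 genes tested, of which 1 rose and 24 did not pass, with a median of 0.28. PRKAB1, a regulatory subunit of the energy sensor AMPK, had 107 and 110.3 CPM in d27, against 51.8 and 38.8 CPM in WT (log2 1.26 ± 0.25, SE; edgeR adjusted p = 0.0239). Its call ended without WT replicate 2 (adjusted p = 0.0536). AKT1, the kinase that phosphorylates AKT1S1, had a log2 fold change of -0.34 (edgeR adjusted p = 0.496), and the receptor gene IGF1R one of -1.01 ± 0.30 (SE; edgeR adjusted p = 0.0632).

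The amino acid sensing list had 29 genes tested, of which 4 rose, 1 fell and 24 did not pass, with a median of -0.12. The called genes made up 17.2%, against 11.7% over all genes tested (8.00% higher and 3.70% lower). SESN2, a leucine sensor that is also induced by stress, had 86.0 and 129.8 CPM in d27, against 17 and 24.3 CPM in WT (log2 2.38 ± 0.32, SE; edgeR adjusted p = 0.00904). NPRL3, a subunit of the GATOR1 complex that inhibits the RAG GTPases, had 177 and 167 CPM in d27, against 53.4 and 51.6 CPM in WT (log2 1.71 ± 0.23, SE; edgeR adjusted p = 0.00898). These 2 genes, whose products restrain mTORC1 when amino acids are low, were above WT in both d27 libraries. Their partners and relatives lay on the other side of 0 and did not pass the test. DEPDC5 and NPRL2, the other GATOR1 subunits, had log2 fold changes of -1.28 and -0.41 (edgeR adjusted p = 0.0858 and 0.654). SESN1 and SESN3, relatives of SESN2, had -0.35 and -0.38 (edgeR adjusted p = 0.717 and 0.529). LAMTOR3 and LAMTOR1, parts of the Ragulator scaffold that holds the RAG GTPases on the lysosome, also passed the test. LAMTOR3 had 30.1 and 26.4 CPM in d27, against 8.62 and 9.33 CPM in WT (log2 1.65 ± 0.29, SE; edgeR adjusted p = 0.0180, or 0.0714 without d27 replicate 1). LAMTOR1, named after its values were seen, had 65.2 and 73.2 CPM in d27, against 28.2 and 19.3 CPM in WT (log2 1.54 ± 0.29, SE; edgeR adjusted p = 0.0194). The other Ragulator subunits did not pass the test: LAMTOR2 had a log2 fold change of -0.09, LAMTOR4 of -0.65 and LAMTOR5 of 0.15 (edgeR adjusted p = 0.866, 0.252 and 0.836).

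The mTORC2 and assembly list had 7 genes tested, of which 2 fell and 5 did not pass, with a median of -0.12. In so short a list, 2 genes made up 28.6%, where 11.7% of all genes tested were called, 3.70% of them lower in d27. Both genes that fell encode partners in the TTT complex, which helps the HSP90 chaperone assemble MTOR and related kinases. TELO2 had 17.5 and 24.9 CPM in d27, against 46.4 and 56.7 CPM in WT (log2 -1.29 ± 0.30, SE; edgeR adjusted p = 0.0341). TTI1 had 46.8 and 43.0 CPM in d27, against 92.2 and 90.5 CPM in WT (log2 -1.02 ± 0.23, SE; edgeR adjusted p = 0.0329). Both calls ended with library totals (adjusted p = 0.0519 for TELO2 and 0.0603 for TTI1), without WT replicate 2 (0.0505 and 0.0515) or without d27 replicate 1 (0.211 and 0.117). TTI2, the remaining subunit of that complex, overlapped between the groups, with 15 and 18.2 CPM in d27 and 15.9 and 8.70 CPM in WT (log2 0.43 ± 0.38, SE; edgeR adjusted p = 0.474). TTI1 also lost its call without d27 replicate 2 (adjusted p = 0.117) and with the offset for coding length (0.0945).

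The substrate and effector list had 20 genes tested, of which 2 rose, 1 fell and 17 did not pass, with a median of 0.20. EIF4EBP2, a repressor of cap-dependent translation that mTORC1 phosphorylates, had 334 and 288 CPM in d27, against 121 and 85.3 CPM in WT (log2 1.60 ± 0.27, SE; edgeR adjusted p = 0.0152). ATG13, a subunit of the autophagy-starting ULK1 complex, had 119 and 121 CPM in d27, against 54.8 and 49.7 CPM in WT (log2 1.20 ± 0.23, SE; edgeR adjusted p = 0.0203). CAD, an enzyme of pyrimidine synthesis, had 92.2 and 132 CPM in d27, against 228 and 337 CPM in WT. It fell by 1.33 ± 0.30 on the log2 scale (SE; edgeR adjusted p = 0.0323), and its call ended without d27 replicate 1 (0.122), without WT replicate 2 (0.0669) and with the offset for coding length (0.195). EIF4EBP1, the closest relative of EIF4EBP2 in the list, had 99.3 and 107 CPM in d27, against 81.8 and 75.6 CPM in WT, and did not pass the test (log2 0.39 ± 0.23, SE; edgeR adjusted p = 0.276). Genes on the opposite strand cover 6.85% of the exon bases of NPRL3 (MPG) and 4.70% of those of ATG13 (HARBI1).

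**Figure D5:**
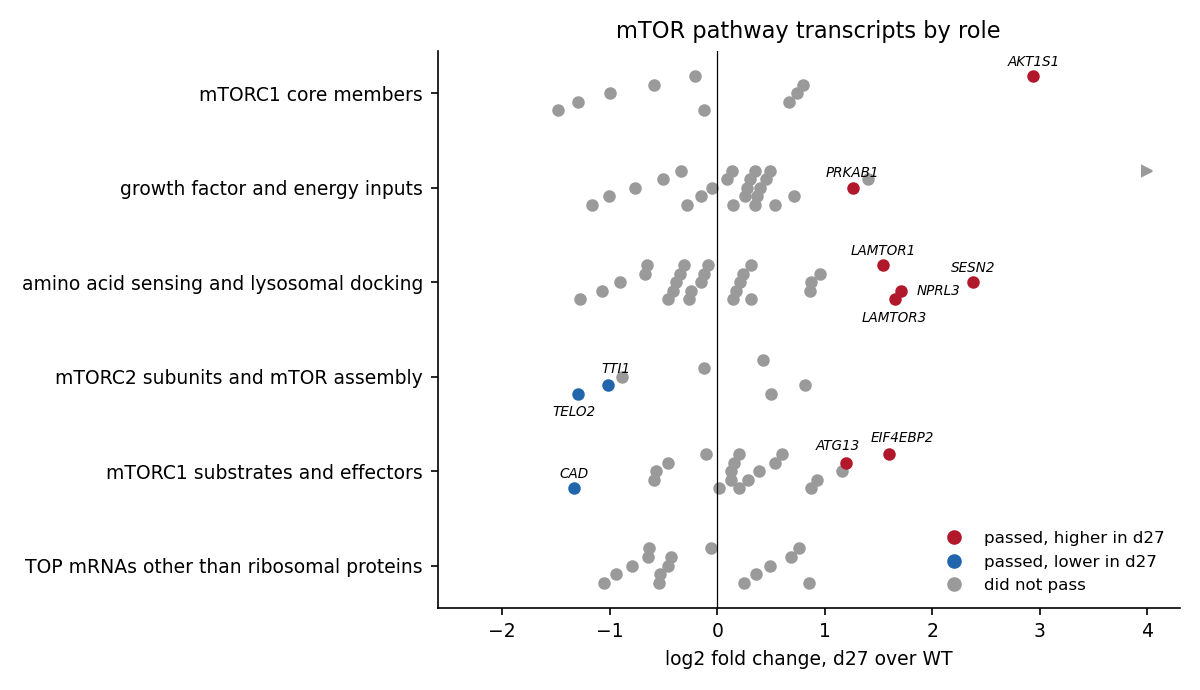
Log2 fold change (d27 over WT) of the pathway genes tested, grouped by role; coloured points passed the edgeR test, grey points did not, 1 called gene is not drawn, and an arrow marks a value beyond the axis. Beside AKT1S1 at 2.94, called genes of the lists lie on both sides of 0, the highest being SESN2 at 2.38, and no gene of the TOP mRNA group passed the test.

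None of the 16 TOP mRNAs tested passed the test, and their median log2 fold change was -0.45, with 6 above 0 and 10 below. At an unadjusted p under 0.05 edgeR had 3 of them higher and 4 lower in d27, and the share of all genes at that threshold is not given here. DESeq2 called 3 higher and 3 lower after adjustment, where it called 23.3% of all genes it tested in either direction. EEF2, the translocation factor, had 1070.2 and 1741 CPM in d27, against 2285 and 3532 CPM in WT (log2 -1.05 ± 0.37, SE; edgeR adjusted p = 0.102). EEF1A1, which delivers aminoacyl-tRNA to the ribosome, had 1085 and 1301 CPM in d27, against 1927 and 1803 CPM in WT (log2 -0.64 ± 0.28, SE; edgeR adjusted p = 0.165). RACK1, a protein of the small ribosomal subunit, had 403 and 509.6 CPM in d27, against 728 and 689 CPM in WT (log2 -0.63 ± 0.26, SE; edgeR adjusted p = 0.147). These 3 mRNAs, whose pyrimidine runs are printed above, were below WT in both d27 libraries. NAP1L1, a histone chaperone with the same kind of start, was on the other side, with 889.7 and 654 CPM in d27 and 462 and 392 CPM in WT (log2 0.85 ± 0.28, SE; edgeR adjusted p = 0.0848). Over the whole table, 785 genes tested had the run at a RefSeq start, with a median of 0.03. Of these, 86 were called higher (11.0%) and 29 lower (3.69%), against 8.00% and 3.70% of all genes tested.

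The 5 protein-coding genes whose pattern over the 4 libraries was most like that of AKT1S1 were KLF4, CRTC2, ZNF580, PPP1R15A and PEA15. Likeness was the Euclidean distance between log2 CPM values, centred on each gene's mean. KLF4, a transcription factor, was nearest at 0.248, with 118 and 123 CPM in d27 and 16.1 and 19.7 CPM in WT. CRTC2, a coactivator of CREB, was at 0.282, with 521 and 612 CPM in d27 and 65.6 and 60.7 CPM in WT. ZNF580, PPP1R15A and PEA15 followed at 0.315, 0.346 and 0.348. PPP1R15A, a stress-induced phosphatase subunit that restores translation, was the most abundant of these, with 1673 and 1665 CPM in d27 and 252 and 294 CPM in WT.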

How the data were processed

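RNA from 2 d27 and 2 WT anti-V5 precipitates was isolated with Trizol and, after removal of ribosomal RNA, entered a stranded library kit, per the labels' protocols. The deposited tables, 1 per library, hold raw counts of reads per gene, made with HTSeq on GRCh38, per the submitters' processing notes, which also name DESeq2. The aligner, the release of the annotation, the strand setting and versions were not given in the sources used here. HTSeq drops reads with several alignments or more than 1 overlapping gene, so overlapping genes can be undercounted. HTSeq's summary entries held 25.9% and 36.8% of entries in d27 and 47.6% and 47.3% in WT and entered neither library sizes nor tests.

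Of the 60675 genes, 58444 matched GENCODE release 29, the source of positions, lengths and GC content, and a table of gene names gave symbols. edgeR 4.0.16 (R 4.3.3) used TMM, filterByExpr by group (minimum count 10, minimum total 15), glmQLFit (robust) and glmQLFTest on group alone, with Benjamini-Hochberg adjustment over 14909 genes at a 0.05 threshold. Each fold change is d27 over WT, with an SE obtained as its log2 value over the square root of F. The test was also tested on simulated data. There it called 24.2% of 62 genes changed 2-fold, 92.3% of 65 changed 4-fold and 100% of 73 changed 8-fold. The simulated spread followed the fitted trend with level, so these shares do not carry over to sparse genes or to genes with more variable replicates. A gene that did not pass may therefore still differ 2-fold or more. MTOR, at 2.78-fold, and FN1, at 3.08-fold, were lower in d27 and did not pass. Start sequences came from RefSeq (GRCh38.p14). Intervals are exact binomial, cover counting error only, and 0 counts allow up to 3. Depth per library is given as gene counts.

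The members and lists were chosen with earlier results of these data known. The named genes were the members, up to 3 called genes per direction and list by lowest p, the 5 nearest to AKT1S1 and genes that overlap a member. Others, named after their values were seen, are AKT1, IGF1R, EIF4EBP1, EEF2, EEF1A1, RACK1, NAP1L1, LAMTOR1, LAMTOR2, LAMTOR4 and LAMTOR5. So are DEPDC5, NPRL2, SESN1, SESN3, TTI2 and the genes near AKT1S1. A few genes the rule picks are not reported here. The alternatives tried were DESeq2 1.42.0, its size factors, library totals, no filter, a mean of at least 50 counts, each library left out, the replicate number as a block, and offsets for GC content with exon or coding length (mgcv 1.9.3). The coding length offset, the shares with a library left out and the 60 kb window were added after seeing the data. Replicate numbers are not stated to pair the libraries, and same-numbered libraries deviated together with r = 0.096 only.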

Additional observations from a re-analysis of the deposited data

How the results depend on the processing

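AKT1S1, chosen for its value here, had log2 fold changes of 2.45 to 3.03 over the 13 alternatives, and its subunit share differed between d27 and WT by 52.1 to 59.4 percentage points. SESN2, NPRL3, LAMTOR1, EIF4EBP2, ATG13 and ATF5 kept their direction and call in all 13. The number of genes called was 1743, against 2831 with DESeq2, 2862 with no filter and 768 to 4851 with 1 library left out (768 without d27 replicate 1, 4851 without WT replicate 1). The number of members called was 1, against 3 with DESeq2 (AKT1S1, RPTOR and TSC2), 4 with no filter (MTOR added), 3 with a mean of at least 50 counts and 1 to 4 with 1 library left out. The pathway list count was 11, against 24 with DESeq2, 22 with no filter, 17 with a mean of at least 50 counts, 21 with the offset for GC content and exon length, and 6 to 31 with 1 library left out. The direction reversed for MLST8 without WT replicate 2 (range with 1 library left out -0.50 to 0.24), and for TSC1 without WT replicate 2 (range -0.26 to 0.12), with the offset for exon length (0.39) and with that for coding length (0.34). The cause was not tested.

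The replicate block, for numbers that are not shown to pair the libraries, called 3575 genes, 7 members and 26 pathway list genes. The replicate block with the offset for GC content and exon length called 4069, 6 and 36, and put TSC1 at 0.39. With 2 libraries a group and WT replicate 2 far from WT replicate 1 in MTOR, RPTOR and TSC2, the precision of those values is set by the replicates more than by depth; the counts of DEPTOR, 34 to 56 per library, limit its value.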

Other observations

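Some listed pathway genes had counts that the annotation bears on. EEF1G, a subunit of an elongation factor complex, was listed at 0 in all 4 libraries, and in GENCODE release 29 a same-strand gene covers 99.93% of its exon bases. For PIK3R2, a regulatory subunit of PI3 kinase, a same-strand gene covers 87.25%. DDIT4L, the relative of DDIT4, had 26 and 11 counts in d27 and no count in either WT library, so its fitted fold change depends on the prior count and is not given.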
